A study of Mus musculus with 48 samples.

Results

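The 9 genes described here mark the layers and the glutamatergic identity of cortical neurons. Cux2 and Rorb mark upper layers, Fezf2, Etv1 and Crym layer 5, and Tbr1 and Ccn2 layer 6 and the subplate below it, while Slc17a7 and Slc17a6 encode vesicular glutamate transporters. They were taken by gene name from the platform annotation, and the list was chosen with earlier results of these data known. Counts over the 9 genes therefore describe and do not test. All 9 of the 9 listed genes had a probe, 13 of 25697 probes on the array, and they are 9 of 18312 features (1 probe per named gene, and unnamed probes).

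RNA of cortex and striatum of the same 24 FvB/NJ mice was measured on 48 Illumina MouseRef-8 bead arrays, 1 sample per array. Of each region there were 6 groups of 4 mice (2 males and 2 females): wild-type and BACHD-ΔN17 mice of 2, 7 and 11 months. BACHD mice model Huntington's disease: a bacterial artificial chromosome gives them the human huntingtin gene in mutant form with its own regulatory sequence, so that expression is not confined to 1 cell type. In the ΔN17 version the short segment at the start of the protein is deleted. No group carried the mutant protein with that segment intact, so the mutation and the deletion cannot be told apart, and the labels do not say how many founder lines the genotype stands for.

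The cerebral cortex is built in layers whose projection neurons share glutamate as transmitter and differ in where their axons go. Upper-layer neurons connect cortical areas with each other, layer 5 neurons send axons to the striatum, brainstem and spinal cord, and layer 6 neurons project to the thalamus. Transcription factors such as Cux2, Fezf2 and Tbr1 set up and maintain these identities. VGLUT1, the product of Slc17a7, loads glutamate into vesicles of most cortical neurons, and VGLUT2, the product of Slc17a6, does so in thalamic neurons and in fewer cortical cells. The striatum is made mostly of inhibitory projection neurons that use GABA and receives glutamatergic axons from cortex and thalamus, whose messenger RNA stays largely in the distant cell bodies. Cortex and striatum degenerate in Huntington's disease.

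All values are log2 intensities after background correction and quantile normalization, and a difference of 1 is a change of 2-fold. A probe counted as detected where its deposited detection p-value was under 0.05. Between 12477 and 14378 probes were detected per array (median 13630.5), and no pair of arrays was identical (highest correlation 0.99469, across probes). The 8 arrays numbered lowest in the labels' internal numbering detected 12477 to 13187 probes and the other 40 detected 13226 to 14378. They held 4 striatal arrays and 4 of the 8 cortical arrays at 11 months, 2 of each genotype. The cortical calls at 11 months, and some striatal results, are therefore also given without them. Genotype labels were not checked against the transgene, since it is not known here which probe would read it. The regional labels were borne out: Slc17a7 was at 13.12 to 13.82 on all 24 cortical arrays, and the summed level of 8 projection neuron markers of the striatum was 16.45 to 16.62 in wild-type striatum at 11 months against 12.76 to 13.04 in cortex. Of 13 excitatory markers with a probe, Neurod6 and Emx2 were detected in no cortical group. In such tissue samples fewer cells of a type and less RNA per cell cannot be told apart.

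Promoter windows (250 bases before to 50 after an annotated start, RefSeq, GRCm38.p6) were at hand for 7 of the 9 genes. They are shown for the 3 genes that were lower in BACHD-ΔN17 cortex at 11 months, Cux2 with 2 annotated starts. Capitals mark CANNTG, the E-box that basic helix-loop-helix factors such as the NEUROD family can bind, which reads the same on both strands.

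Slc17a7 (chr7:45163671-45163970, plus strand): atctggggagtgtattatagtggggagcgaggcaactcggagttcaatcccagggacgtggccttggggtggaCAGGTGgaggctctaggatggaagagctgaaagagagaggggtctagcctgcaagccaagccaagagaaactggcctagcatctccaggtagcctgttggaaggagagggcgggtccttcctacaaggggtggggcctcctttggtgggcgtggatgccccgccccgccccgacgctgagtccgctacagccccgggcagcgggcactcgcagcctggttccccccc

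Tbr1 (chr2:61804203-61804502, plus strand): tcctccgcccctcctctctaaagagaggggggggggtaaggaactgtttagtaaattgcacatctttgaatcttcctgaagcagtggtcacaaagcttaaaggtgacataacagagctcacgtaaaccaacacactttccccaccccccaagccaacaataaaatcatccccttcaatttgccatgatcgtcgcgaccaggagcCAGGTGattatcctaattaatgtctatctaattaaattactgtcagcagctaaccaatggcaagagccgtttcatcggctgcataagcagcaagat

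Cux2, start nearer the 5′ end of the gene (chr5:122049802-122050101, minus strand): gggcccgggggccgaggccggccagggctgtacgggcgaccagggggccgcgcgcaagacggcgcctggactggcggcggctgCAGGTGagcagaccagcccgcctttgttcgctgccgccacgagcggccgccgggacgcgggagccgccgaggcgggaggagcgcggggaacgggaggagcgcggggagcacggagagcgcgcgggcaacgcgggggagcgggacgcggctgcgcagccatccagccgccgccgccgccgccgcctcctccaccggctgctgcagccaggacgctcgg

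Cux2, the other start (chr5:122047776-122048075, minus strand): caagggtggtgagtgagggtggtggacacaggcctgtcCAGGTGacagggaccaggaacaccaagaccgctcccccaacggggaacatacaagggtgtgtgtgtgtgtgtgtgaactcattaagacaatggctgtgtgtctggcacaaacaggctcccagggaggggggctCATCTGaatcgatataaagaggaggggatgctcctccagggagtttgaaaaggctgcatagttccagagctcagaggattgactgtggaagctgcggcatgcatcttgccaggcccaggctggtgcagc

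CANNTG occurred in 9 of the 11 windows of these 7 genes and in 72.3% of all 32851 mouse windows, so its presence sets no window apart. Each of the 4 windows printed holds the form CAGGTG (or CACCTG on the other strand), which is in 20.2% of all windows and in none of the other 7 windows of the set. That form was picked out after the sequences were seen, and no test was made of it. A match of letters is not a binding site.

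In cortex at 11 months, Cux2, Slc17a7 and Tbr1 were lower and Ccn2 was higher in BACHD-ΔN17 mice, 4 of the 9 genes, where 16.1% of 11047 tested features passed (limma, Benjamini-Hochberg adjusted p under 0.05 over all features, 2-sided). In single directions 9.17% of all features were lower and 6.97% higher, against 3 and 1 of the 9. Rorb, Fezf2, Etv1, Crym and Slc17a6 did not pass. The median log2 difference was -0.13 over the 9 genes and 0.02 over all features. The groups did not overlap for 3 of the 9 genes, against 14.9% of all features.

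**Figure D1:**
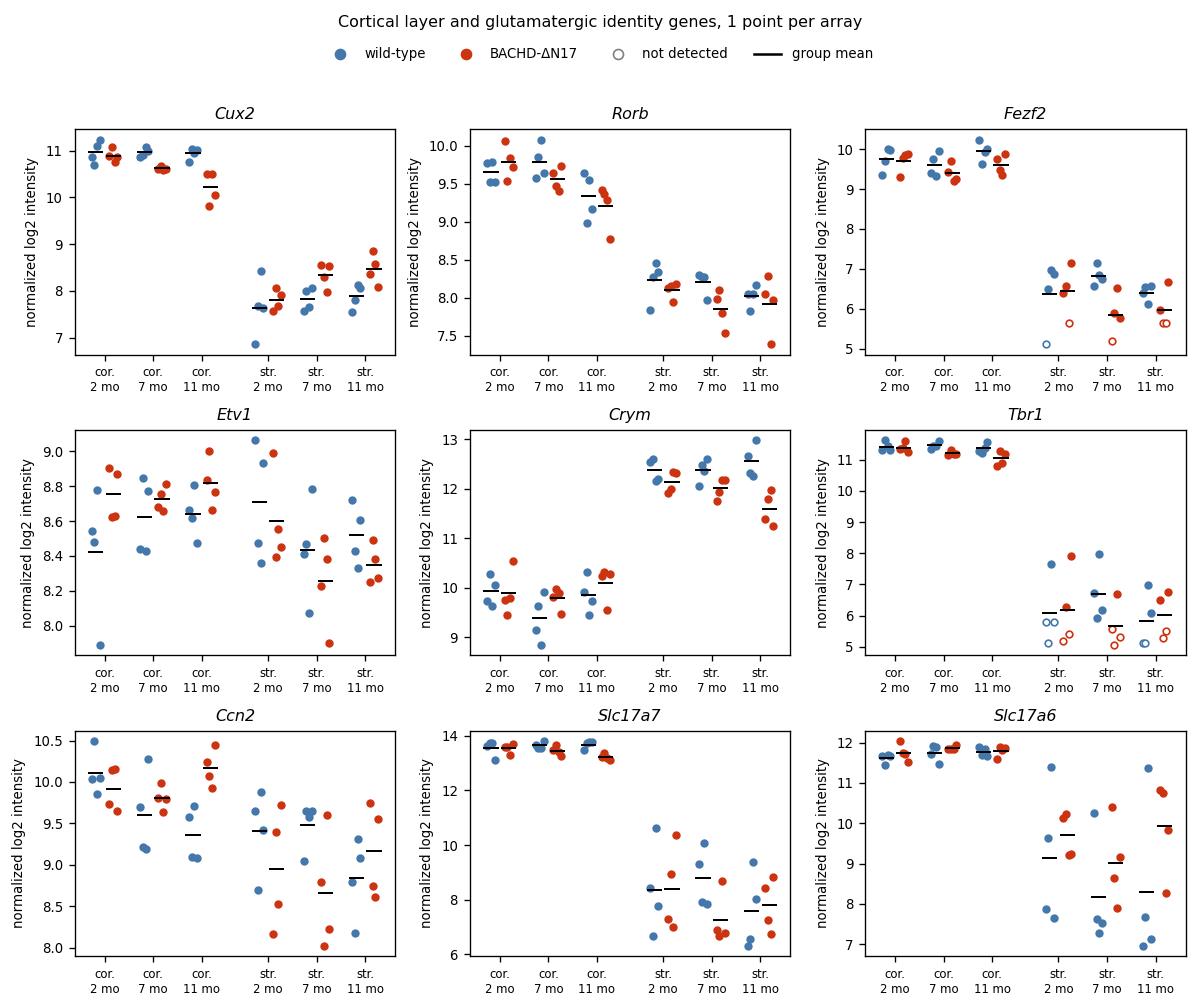
Normalized log2 intensity (y axis) of each of the 9 genes on every array, by region and age (x axis) and genotype (colour), with the group mean as a black line and open points where the probe was not detected. Cux2 in cortex at 11 months lies at 9.81 to 10.51 in BACHD-ΔN17 against 10.76 to 11.04 in wild-type mice, and Crym is the only gene of the 9 that lies higher in striatum than in cortex on every array.

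Cux2 (chr5:121857962-122050415, GRCm38.p6 as for all genes here) encodes a homeobox factor of upper-layer neurons that shapes their dendrites and synapses. At 11 months it stood at 10.76, 10.95, 11.01 and 11.04 in wild-type cortex and at 9.81, 10.06, 10.51 and 10.51 in BACHD-ΔN17 cortex. Every transgenic value lay below every wild-type value, and the transgenic group was the more spread. The means were 10.94 ± 0.13 and 10.22 ± 0.35 (SD, n = 4 each), a log2 difference of -0.72 (95% interval -0.99 to -0.45, 1.64-fold, limma adjusted p = 0.000368). Without the arrays of lowest number it was -0.69 (limma adjusted p = 0.0149), and it was -0.62 within internal numbers 1 to 32 and -0.92 within 33 to 48, where 1 transgenic mouse stood against 2. Cux2 has 2 other probes, both dimmer: 1 detected on 22 of 24 cortical arrays gave -0.77 (SE 0.27, limma adjusted p = 0.0518), and 1 detected on 18 gave -0.18 (0.789).

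At 7 months Cux2 was 10.86, 10.91, 11.00 and 11.08 in wild-type cortex against 10.59, 10.61, 10.62 and 10.68 in BACHD-ΔN17 cortex. These groups too were apart, but the difference of -0.34 (95% interval -0.61 to -0.07) did not pass over all features (limma adjusted p = 0.259). At 2 months the 4 wild-type values, 10.70, 10.86, 11.11 and 11.24, enclosed the 4 transgenic values, 10.77, 10.86, 10.88 and 11.09.

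Rorb (chr19:18930609-19111196) encodes a nuclear receptor of layer 4 neurons, which receive thalamic input. Its cortical values ran from 8.77 to 10.08 over all 24 mice, the groups overlapped at each age, and the difference at 11 months was -0.13 (95% interval -0.40 to 0.15, limma adjusted p = 0.557).

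The layer 5 genes did not pass in cortex at any age. Fezf2 (chr14:12338992-12346803), the zinc finger factor that specifies neurons projecting out of the cortex, was at 9.64, 9.92, 10.00 and 10.24 in wild-type and 9.35, 9.48, 9.75 and 9.87 in BACHD-ΔN17 cortex at 11 months, overlapping groups with a difference of -0.34 (95% interval -0.70 to 0.02, limma adjusted p = 0.192). Etv1 (chr12:38780082-38870483), an ETS family factor, gave 0.18 (95% interval -0.14 to 0.49) and Crym (chr7:120186380-120201989), which encodes a thyroid hormone binding protein, 0.24 (-0.24 to 0.72). These intervals leave room for changes of either sign, up to 0.72 for Crym. A further probe of Etv1, detected on all arrays, gave -0.20 at 11 months (limma adjusted p = 0.52), of the opposite sign, so its direction is not settled.

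The deep-layer pair went opposite ways. Tbr1 (chr2:61802863-61814114), the T-box factor of layer 6 neurons, was 11.21, 11.28, 11.37 and 11.57 in wild-type cortex at 11 months and 10.80, 10.90, 11.18 and 11.26 in BACHD-ΔN17 cortex. The groups overlapped by 1 value on each side. The difference was -0.32 (95% interval -0.54 to -0.11, limma adjusted p = 0.0368), and the call was lost in 10 of 20 other settings, among them leaving out transgenic mouse 1 or 3 or wild-type mouse 3 or 4 (adjusted p = 0.0696 to 0.149) and leaving out the arrays of lowest number (-0.45, 0.0553). It was -0.26 within numbers 1 to 32 and -0.29 within 33 to 48. At 7 months wild-type values of 11.34, 11.43, 11.43 and 11.61 lay above transgenic values of 11.14, 11.16, 11.17 and 11.31, a difference of -0.26 (limma adjusted p = 0.314).

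Ccn2 (chr10:24595442-24598683) encodes a secreted matrix protein, connective tissue growth factor, that marks subplate neurons in mouse cortex and is also made by cells of vessels and meninges. It was 9.08, 9.09, 9.58 and 9.72 in wild-type cortex at 11 months and 9.93, 10.07, 10.24 and 10.45 in BACHD-ΔN17 cortex. All 4 transgenic values were above all 4 wild-type values. The means were 9.37 ± 0.33 and 10.17 ± 0.22 (SD, n = 4 each), a log2 difference of 0.81 (95% interval 0.40 to 1.22, 1.75-fold, limma adjusted p = 0.00605). Without the arrays of lowest number it was 0.75, with 2 mice per group, and did not pass (limma adjusted p = 0.157). Within numbers 1 to 32 it was 0.75 and within 33 to 48 it was 1.05. The summed level of the leptomeningeal markers with a probe (5 of 5 listed, Col1a2 not detected) was 11.37 to 12.54 in these wild-type and 12.58 to 13.02 in these transgenic cortices, and 0 of 4 tested passed (median 0.22). The summed endothelial markers were at 12.32 to 12.59 and 12.44 to 12.66, with 0 of 3 past the threshold. Their part in the Ccn2 difference was not tested.

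Of the transporters, Slc17a7 fell and Slc17a6 did not pass. Slc17a7 (chr7:45163921-45176139) was 13.48, 13.72, 13.75 and 13.75 in wild-type and 13.12, 13.18, 13.23 and 13.36 in BACHD-ΔN17 cortex at 11 months. The groups were apart, with 1 wild-type mouse nearer to the transgenic values than its group mates. The means were 13.68 ± 0.13 and 13.22 ± 0.10 (SD, n = 4 each), a log2 difference of -0.45 (95% interval -0.68 to -0.23, 1.37-fold, limma adjusted p = 0.00554). It was -0.66 without the arrays of lowest number (limma adjusted p = 0.016), -0.34 within numbers 1 to 32 alone (0.0602) and -0.63 within 33 to 48. Slc17a6 (chr7:51621830-51671126) was 11.66 to 11.90 in wild-type and 11.60 to 11.90 in transgenic cortex, a difference of 0.02 whose interval, -0.18 to 0.22, holds no change larger than 0.22.

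**Figure D2:**
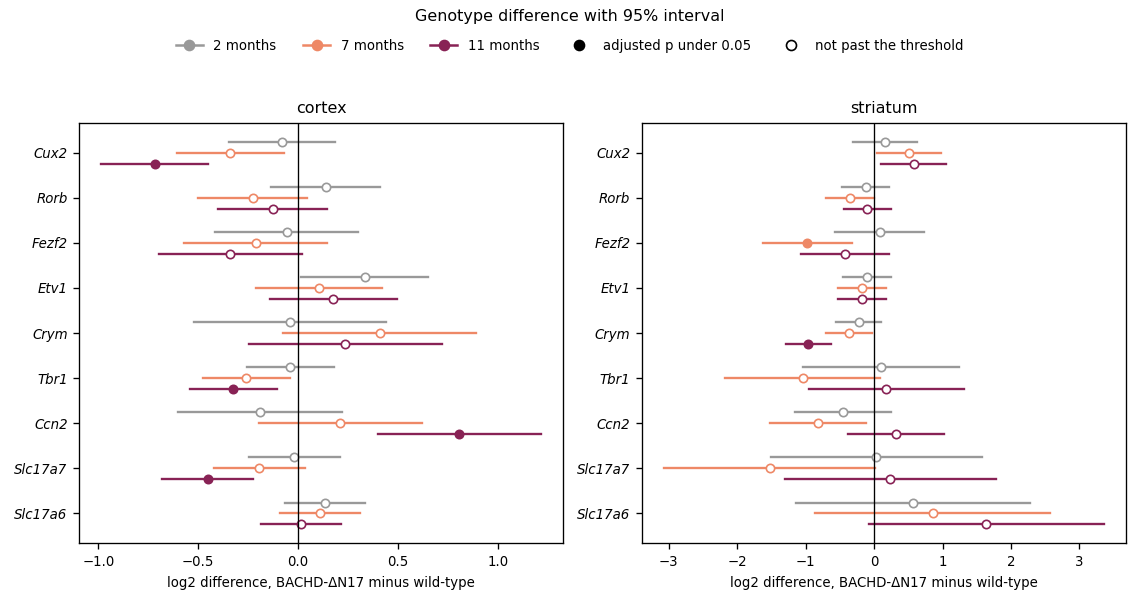
Log2 difference, BACHD-ΔN17 minus wild-type (x axis), with its 95% interval for each gene (y axis) in cortex and striatum at 2, 7 and 11 months (colour); filled points passed an adjusted p of 0.05. In cortex Cux2 reached -0.72 and Ccn2 0.81 at 11 months, while in striatum the intervals of Slc17a7, Tbr1 and Slc17a6 are several times wider than in cortex.

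From 2 to 11 months the change of the genotype difference in cortex passed for Cux2 and Ccn2, near the threshold. At 2 months 0 of the 9 genes passed and 0% of all features did, with 219 features at an unadjusted p under 0.05. The differences of the 9, each by its probe with the highest mean, lay between -0.19 for Ccn2 and 0.33 for Etv1. The further probe of Etv1 gave 0.63 at 2 months (95% interval 0.24 to 1.02) and did not pass (limma adjusted p = 0.999). By that probe the change from 2 to 11 months was -0.83, which did not pass either (limma adjusted p = 0.0909). At 7 months 0 of the 9 passed, against 1.77% of all features. No gene of the 9 had separate groups at 2 months (2.05% of all features did), while Cux2 and Tbr1 had at 7 months (8.78%).

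The change of the difference from 2 to 11 months, tested directly, was -0.64 for Cux2 (95% interval -1.02 to -0.26, limma adjusted p = 0.0482) and 1.00 for Ccn2 (0.42 to 1.57, 0.0431), 2 of the 9 genes where 3.98% of all features passed. Both calls were near the threshold: leaving out single mice of the 16 took the call from Cux2 in 12 cases and from Ccn2 in 10 (adjusted p up to 0.113). Over all 28 other settings Cux2 lost the call in 20 and Ccn2 in 15. Scale normalization was among them (limma adjusted p = 0.326 and 0.16). The wild-type cortical level of Ccn2 was 9.85, 10.03, 10.05 and 10.50 at 2 months against 9.08 to 9.72 at 11 months, a difference of -0.74 (95% interval -1.15 to -0.33) that did not pass over all features (limma adjusted p = 0.216). Transgenic Ccn2 was 9.92 ± 0.27 at 2 months and 10.17 ± 0.22 at 11 months. Of the 9 genes, 0 passed for the wild-type age difference in cortex, with 0.0181% of all features.

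Averaged over the 3 ages, Cux2 (-0.38, 95% interval -0.53 to -0.23, limma adjusted p = 0.00111), Slc17a7 (-0.22, 0.0217) and Tbr1 (-0.21, 0.0254) were lower in BACHD-ΔN17 cortex, 3 of the 9 genes where 11.9% of all features passed. The Tbr1 call was lost in 8 other settings, 5 of them leaving out 1 mouse (limma adjusted p = 0.0505 to 0.0524, wild-type mouse 2 or transgenic mouse 4 at 2 months, wild-type mouse 4 at 7 months, wild-type mouse 4 or transgenic mouse 1 at 11 months) and the others with scale normalization (0.251), groups of 8 arrays as a term (0.0985) and within numbers 1 to 32 (0.301). The Slc17a7 call was lost with scale normalization (0.207) and without a variance trend (0.0526), and the Cux2 call with the second probe (0.111) and within numbers 1 to 32 (0.131). Ccn2 averaged 0.28 (95% interval 0.04 to 0.51) and did not pass (limma adjusted p = 0.125).

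The wider layer lists put these genes in context. They are lists of known markers chosen with results of these data in view, so their counts describe and do not test. In cortex at 11 months 9.17% of all features were lower and 6.97% higher, the shares to set beside every list count at that age. Of 11 tested upper-layer genes there, 4 were lower and 0 higher, with a median of -0.50. They were Cux2, its paralogue Cux1 (-0.64), the semaphorin receptor Plxnd1 (-0.74) and the scaffold gene Whrn (-0.64). Of 9 tested layer 5 genes, 2 were lower and 0 higher (median -0.22): Hsd11b1 (-0.68), a glucocorticoid-activating enzyme, and Ldb2 (-0.41), a LIM domain cofactor. Of 9 tested layer 6 and subplate genes, 4 were higher and 2 lower (median 0.17). Those higher were the neurotensin receptor gene Ntsr1 (0.94), Ccn2, the transcriptional cofactor gene Zfpm2 (0.63) and Rprm (0.56), a gene of cell cycle arrest, and those lower were Moxd1 (-0.72) and Tbr1. Without the 9 genes themselves the counts were 3 of 9 lower for upper layers, 2 of 6 lower for layer 5, and 3 higher and 1 lower of 7 for layer 6 and subplate.

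**Figure D3:**
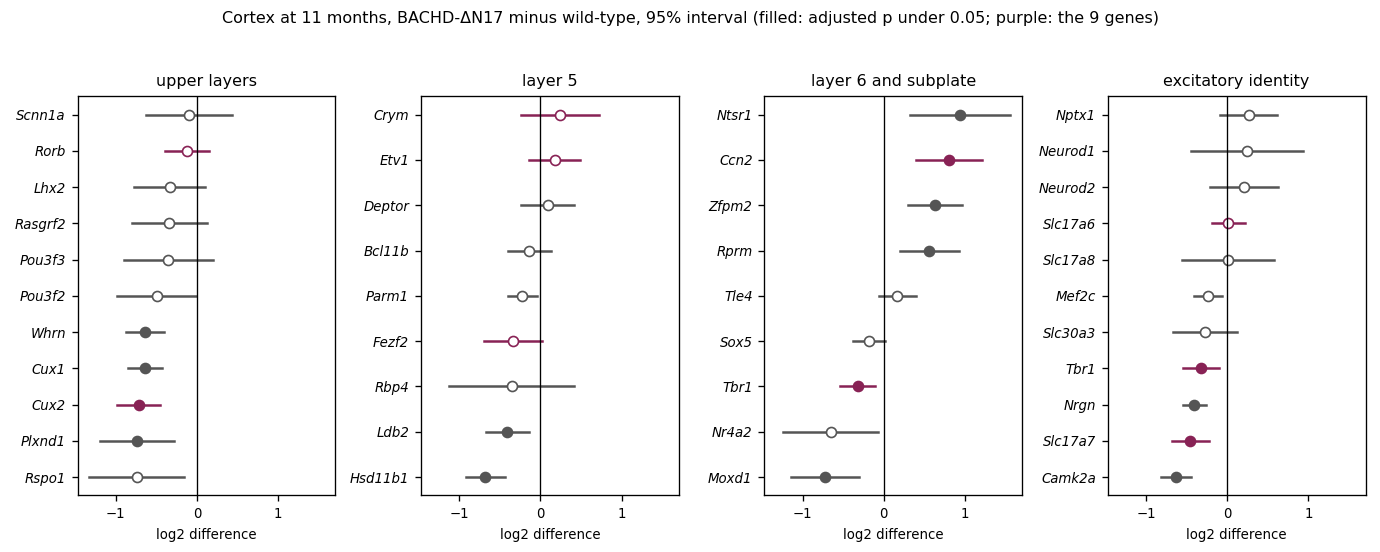
Log2 difference in cortex at 11 months (x axis) with its 95% interval for every tested gene (y axis) of 4 marker lists; filled points passed an adjusted p of 0.05 and purple marks members of the 9 genes. All 11 upper-layer estimates lie below 0, with 4 past the threshold. Of the genes of the deepest layers past it, Ntsr1, Ccn2, Zfpm2 and Rprm lie above 0, and Tbr1 and Moxd1 below.

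Of 11 tested genes of excitatory identity, 4 were lower and 0 higher (median -0.24): Camk2a (-0.63), the kinase of excitatory synapses, Slc17a7, Nrgn (-0.41), a calmodulin-binding postsynaptic protein, and Tbr1. Of 13 tested genes of glutamate handling, 3 were lower and 1 higher (median -0.03). These were the glutamine transporter genes Slc38a3 (-0.82, lower) and Slc38a2 (0.60, higher), the astrocytic glutamate transporter gene Slc1a2 (-0.74), and Slc17a7. At 7 months Camk2a (-0.47), Nrgn (-0.29), Hsd11b1 (-0.46) and Slc1a2 (-0.59) were already lower and Rprm (0.80) higher. Also lower then were the interneuron genes Npy and Reln, the striatal projection neuron markers Ppp1r1b and Scn4b, and Wfs1 of the hippocampal list. Over all features 1.77% passed at that age.

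Markers of other cells moved in the same cortices. Of 7 tested interneuron genes 4 were lower at 11 months (Npy -0.65, Sst -0.48, Reln -0.39), with a summed level of 15.40 to 15.64 in BACHD-ΔN17 against 15.65 to 15.93 in wild-type mice. Of 7 tested markers of striatal projection neurons, which a cortical piece can hold at its deep border and some of which cortical cells also express, 4 were lower (Ppp1r1b -1.05, Scn4b -0.94, Drd2 -0.90), and their summed level was 11.89 to 12.30 against 12.76 to 13.04. Gpr6, of the same list, was not detected in these cortices. Of 2 tested genes of the hippocampal list, Wfs1, also a gene of upper-layer neurons, was lower (-1.62) and Prox1 did not pass (median -0.65). The summed level of that list was 9.20 to 9.40 against 10.30 to 10.75. Of 6 tested astrocyte genes Slc1a2 (-0.74) and Aldh1l1 (-0.50) were lower, with summed levels of 14.90 to 15.17 against 15.14 to 15.28. Of 5 tested microglial genes Cx3cr1 (-0.73) was lower, with 11.45 to 12.04 against 11.95 to 12.33. Of 5 tested oligodendrocyte genes 0 passed (median -0.03), with summed levels of 14.60 to 14.84 and 14.66 to 14.91. Their part in the differences of the 9 genes was not tested.

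Between regions, 8 of the 9 genes differed in wild-type mice, 7 lower and 1 higher in striatum. Over all features 54.9% differed, 26.6% lower and 28.3% higher in striatum, so a count near 8 of 9 goes with a large background. The comparison is the striatum minus cortex difference within each of the 12 wild-type mice. Slc17a7 differed by -5.38 (95% interval -6.12 to -4.64, 41.6-fold), or -4.59 without background correction. Tbr1 differed by -5.20 (-5.77 to -4.62), but its probe was detected in only 7 of the 12 wild-type striata and the value was -3.47 without background correction, so the size is not settled. Slc17a6 differed by -3.19 and Cux2 by -3.18 (-2.52 and -2.42 without background correction). The second Cux2 probe, detected in 4 of all 24 striata, gave -1.28, and the third, detected in 3, gave -0.77. Fezf2, detected in 11 of 12 wild-type striata, differed by -3.25, or -1.95 without background correction. Rorb differed by -1.44. The order of these sizes thus changes with the background setting and the probe. Each of these 6 genes was lower in striatum in 12 of 12 wild-type mice, with limma adjusted p from 3.3e-07 to 3.2e-16.

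Crym ran the other way. Its striatal level was above the cortical level in 12 of 12 wild-type mice, by 2.00 to 3.53, with a mean of 2.71 (95% interval 2.46 to 2.97, 6.56-fold, limma adjusted p = 3.78e-14). Ccn2 was 0.45 lower in striatum on average, in 8 of 12 mice (limma adjusted p = 0.0421), a call lost in 7 of 12 fits that left out a mouse. Etv1 did not differ beyond its spread (-0.01, 95% interval -0.20 to 0.19), lower in striatum in 7 of 12 mice. For the 6 genes lower in every mouse, no wild-type striatum reached the level of any wild-type cortex, although for Slc17a6 the highest striatum, 11.39, came close to the lowest cortex, 11.44.

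**Figure D4:**
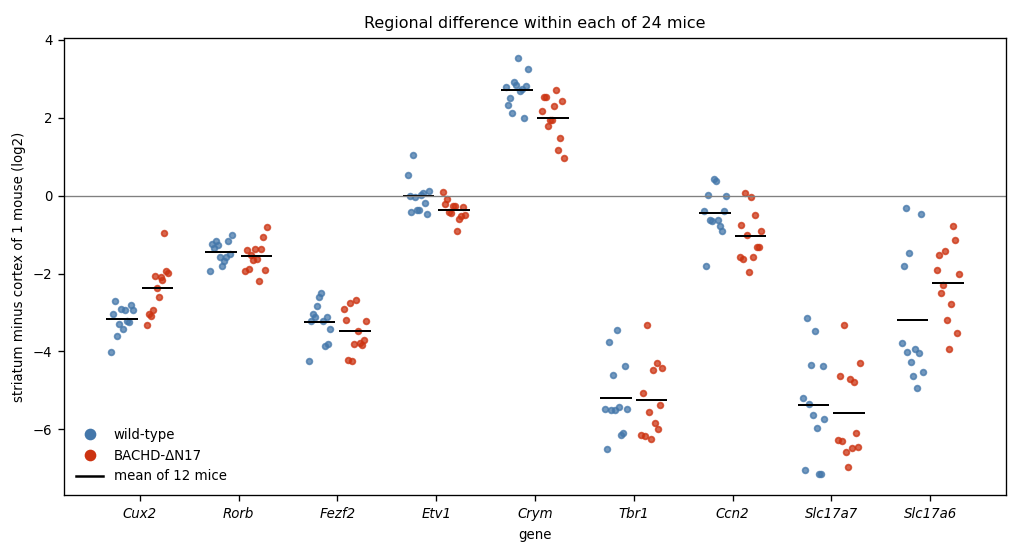
Striatum minus cortex on the log2 scale (y axis) for each gene (x axis), 1 point per mouse, with the mean of 12 mice per genotype as a black line. Slc17a6 spans -4.94 to -0.32 and Slc17a7 -7.16 to -3.14 in wild-type mice, while Crym lies above 0 in all 24 mice.

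The wider lists followed their names in part. Of 11 tested genes of excitatory identity, 10 were lower and 1 higher in wild-type striatum, the higher one being Slc17a8 (2.84), the vesicular transporter of certain striatal interneurons. Of 12 tested upper-layer genes 9 were lower and 1 higher. Layer 5 and layer 6 lists were mixed, 4 lower and 3 higher of 9, and 7 lower and 4 higher of 12, with Foxp2 (3.75), Syt6 (3.43) and Bcl11b (2.65) among those higher in striatum. Foxp2 and Bcl11b are also genes of striatal projection neurons.

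In striatum, Crym was lower in BACHD-ΔN17 mice. At 11 months it was 12.26, 12.33, 12.67 and 12.98 in wild-type and 11.25, 11.39, 11.80 and 11.97 in BACHD-ΔN17 striatum. The groups were apart. The means were 12.56 ± 0.34 and 11.60 ± 0.34 (SD, n = 4 each), a log2 difference of -0.96 (95% interval -1.29 to -0.63, 1.94-fold, limma adjusted p = 8.47e-05), and all 20 other settings kept the call. Crym was the 1 gene of the 9 to pass at 11 months, where 18.9% of all features passed, 10.1% lower and 8.73% higher. It was also the 1 gene with separate groups, as were 22.1% of all features. At 7 months its difference was -0.37 (95% interval -0.70 to -0.03, limma adjusted p = 0.149), and averaged over ages it was -0.52 (-0.71 to -0.33, 0.000161). The difference at 7 months was -0.50 without the arrays of lowest number (limma adjusted p = 0.0458) and -0.20 within numbers 1 to 32 (0.536).

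The 8 tested markers of striatal projection neurons were all lower at 11 months in these striata (median -1.22), with summed levels of 15.55 to 15.65 against 16.45 to 16.62. Of 9 tested layer 5 genes, which Crym belongs to, 4 were lower and 0 higher: Crym, Deptor (-0.91), an inhibitor of mTOR signalling, Bcl11b (-0.81), a zinc finger factor, and Ldb2 (-0.35). Of 6 tested astrocyte genes Gfap (2.90) and Aqp4 (0.52) were higher and Slc1a2 (-0.36) lower, with summed levels of 15.17 to 15.44 against 15.10 to 15.20. Of 5 tested microglial genes C1qa (0.77) was higher and P2ry12 (-0.93), Aif1 (-0.48) and Cx3cr1 (-0.44) lower, with 11.75 to 12.28 against 12.47 to 12.53. Of 4 tested choroid plexus genes Kl (1.11) was higher, with 13.20 to 14.80 against 12.02 to 13.56. The part of these markers in the Crym difference was not tested.

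Fezf2 was the 1 gene of the 9 to pass in striatum at 7 months, against 12.6% of all features (7.3% lower, 5.28% higher). It was 6.57, 6.73, 6.83 and 7.15 in wild-type and 5.20, 5.78, 5.89 and 6.52 in BACHD-ΔN17 striatum. The groups were apart, as for 17.7% of all features, but lay near the detection floor of 5.62 to 6.16: the probe was detected in 4 of 4 wild-type and 3 of 4 transgenic striata. The difference was -0.97 (95% interval -1.62 to -0.33, limma adjusted p = 0.04), and 10 of 20 other settings lost the call. In the authors' values, without background correction, it was -0.32 (0.0419). Without the arrays of lowest number it was -1.11 (limma adjusted p = 0.0135). Within internal numbers 1 to 32, which held all transgenic striata of that age and 2 wild-type striata, it was -0.85 (0.12). Averaged over ages Fezf2 was at -0.44 in striatum (95% interval -0.81 to -0.07) and did not pass (limma adjusted p = 0.0849). That average passed with scale normalization (-0.48, limma adjusted p = 0.0497) and without the arrays of lowest number (-0.60, 0.0159). It also passed in 2 of 24 fits that left out a mouse.

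Slc17a7 and Tbr1 did not pass over all striata at 7 months. Slc17a7 was 7.85, 7.93, 9.31 and 10.07 in wild-type and 6.68, 6.78, 6.91 and 8.68 in BACHD-ΔN17 striatum, overlapping groups with a difference of -1.53 (95% interval -3.07 to 0.02, limma adjusted p = 0.198). Tbr1 was 5.92, 6.19, 6.73 and 7.97 against 5.06, 5.33, 5.58 and 6.68, where 1 of 4 transgenic striata was detected, a difference of -1.04 (-2.18 to 0.09, 0.235). Within numbers 1 to 32, with 2 wild-type striata, both passed, Slc17a7 at -2.42 (limma adjusted p = 0.0352) and Tbr1 at -1.69 (0.0421). Without wild-type mouse 3 they were -0.99 and -0.53. At 11 months these differences were 0.24 and 0.18.

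Cux2 passed in striatum as an average over ages. At 11 months it was 7.55, 7.80, 8.07 and 8.14 in wild-type and 8.08, 8.36, 8.57 and 8.86 in BACHD-ΔN17 striatum, overlapping by 1 value on each side, a difference of 0.58 (95% interval 0.10 to 1.05, limma adjusted p = 0.0829). It passed with groups of 8 arrays as a term (1.00, 0.013), with number sets as a term (0.68, 0.0172), within numbers 1 to 32 (0.63, 0.0456) and without transgenic mouse 4 (0.74, 0.0384). At 7 months it was 0.51 (0.156), and 0.71 with number sets as a term (0.0304). Averaged over ages it was 0.42 (0.14 to 0.69, 0.0241), which with Crym makes 2 of the 9 genes against 21.9% of all features. With the 3 number-based settings the average was 0.55 to 0.62 (limma adjusted p up to 0.00249). The other probe of Cux2 that was tested, detected on 4 of 24 striatal arrays, gave -0.12 (limma adjusted p = 0.514), and without the arrays of lowest number the bright probe gave 0.27 (0.117). It was lost with scale normalization too (0.35, 0.0758).

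At 2 months 0 of the 9 genes passed in striatum, with 0.00891% of all features, and none had separate groups (2.06% of all features). From 2 to 11 months 0 of the 9 passed for a change in the genotype difference (6.68% of all features), Crym coming nearest at -0.73 (limma adjusted p = 0.0523). For the wild-type age difference in striatum 0 of the 9 passed, with 0.134% of all features.

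Cux2 and Crym differed between genotypes by unequal amounts in the 2 regions at 11 months. Tested on the within-mouse differences, the genotype difference in striatum minus that in cortex was 1.29 for Cux2 (95% interval 0.74 to 1.85, limma adjusted p = 0.0057) and -1.20 for Crym (-1.83 to -0.56, 0.0235), 2 of the 9 genes where 5.05% of all features passed. For Cux2 the striatum minus cortex difference was -3.25, -3.21, -2.94 and -2.81 in wild-type and -2.15, -1.98, -1.94 and -0.96 in BACHD-ΔN17 mice, groups that were apart. For Crym it was 2.00, 2.75, 2.82 and 3.25 against 0.97, 1.16, 1.48 and 2.42, groups that overlapped by 1 value on each side. The Crym call was lost without any of 5 of the 8 mice (wild-type mouse 1 or 4, transgenic mouse 1, 2 or 4, adjusted p up to 0.088), and the Cux2 call with its second probe (0.79, 0.2). The third Cux2 probe gave 0.28 and did not pass either (limma adjusted p = 0.803). At 7 months 0 of the 9 passed, with 1.53% of all features, and at 2 months 0 with 0%.

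Slc17a7, Tbr1 and Slc17a6 varied widely between striata, with SDs of 1.28, 0.90 and 1.42 over 24 arrays, against 0.22, 0.20 and 0.15 in cortex. Over the 24 striata Slc17a7 ran from 6.32 to 10.61 (median 7.89) and Slc17a6 from 6.96 to 11.39 (median 9.19), against 13.12 to 13.82 and 11.44 to 12.05 in cortex. Tbr1 ran from 5.06 to 7.97 and was detected in 12 of 24 striata, Fezf2 in 19 of 24, and the other 7 genes on all 48 arrays. Slc17a7 and Tbr1, markers of cortical neurons, were correlated over these striata (Pearson r = 0.96, Spearman rho = 0.94). This held in 12 wild-type (r = 0.96) and 12 transgenic striata (0.96), in internal numbers 1 to 32 (0.94, 18 striata) and 33 to 48 (0.98, 6 striata), and without the 2 striata farthest from the median Slc17a7 level (0.94).

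These relations, 9 in all, were computed after the values were seen, so they are given as descriptions of the 24 striata with no p-value. The striata share their normalization and differ in age and genotype. Slc17a7 and Ccn2 gave r = 0.77 (rho = 0.74), with 0.74 without the 2 farthest striata, 0.80 within numbers 1 to 32 and 0.63 within 33 to 48. Slc17a7 and Fezf2 gave r = 0.49 (rho = 0.51), and 0.34 without the 2 farthest. For that pair r was 0.10 in the 12 wild-type and 0.87 in the 12 transgenic striata, a difference that was not tested. Slc17a7 and Slc17a6 gave r = 0.28 (rho = 0.31), with 0.20 and 0.91 in the number sets.

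Slc17a6 was set against all 5 genes of the thalamic list. It correlated with Prkcd, a kinase gene of thalamic neurons that some striatal cells also express, at r = 0.94 (rho = 0.93), at 0.99 in wild-type and 0.87 in transgenic striata. With the transcription factor genes it was 0.83 for Tcf7l2, 0.76 for Rora and 0.60 for Zic1. For Lef1 it was 0.05, a value that can show little. Lef1 was not detected in any striatum at 11 months, nor in wild-type striata at 7 months or transgenic striata at 2 months. Without the 2 striata farthest from the median Slc17a6 level these values were 0.94, 0.80, 0.87, 0.58 and 0.01.

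**Figure D5:**
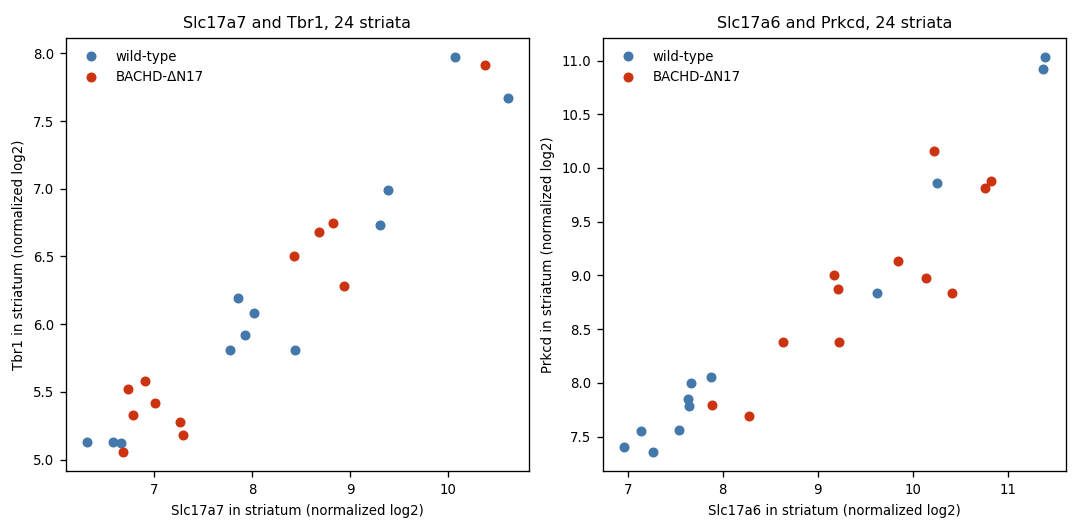
Normalized log2 intensities of Tbr1 against Slc17a7 (left) and of Prkcd against Slc17a6 (right) in 24 striata, coloured by genotype. Points of both pairs lie along a rising line, over 6.32 to 10.61 for Slc17a7 and 6.96 to 11.39 for Slc17a6.

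The highest Slc17a6 values in wild-type striatum were 11.39 at 2 months, 10.25 at 7 months and 11.37 at 11 months, each from 1 mouse whose group mates were at 7.65 to 9.62, 7.27 to 7.63 and 6.96 to 7.67. In BACHD-ΔN17 striatum at 11 months the 4 values were 8.28, 9.85, 10.76 and 10.82, a difference from wild-type of 1.64 with an interval of -0.07 to 3.35 (limma adjusted p = 0.188). Without wild-type mouse 3 at 11 months, the difference was 2.72 and passed (limma adjusted p = 0.00972), so this comparison is decided by 1 mouse. The summed thalamic markers were at 11.10 to 12.40 in wild-type and 11.27 to 11.97 in transgenic striata of that age, with 0 of 4 tested past the threshold, and their part in the Slc17a6 values was not tested.

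Among all features detected on at least 4 cortical arrays, the 2 non-member genes with the most similar pattern over the 24 cortices were found for each gene, as a description in which genotype, age and array are shared. Cux2 was followed by Kcnip3 (r = 0.91), which encodes a calcium-binding modulator of potassium channels, and Gucy1a1 (0.90), a guanylate cyclase subunit. For Slc17a7 they were Fads2 (0.87), a fatty acid desaturase, and Prkce (0.84), a protein kinase C, for Tbr1 Ldhd (0.82) and the somatostatin gene Sst (0.80), and for Ccn2 Rai14 (0.73) and Zfpm2 (0.72). The nearest partners of Etv1 were Psmb7 (0.83) and Celf1 (0.79), of Fezf2 Nrbf2 (0.79) and Nrp1 (0.78), of Rorb Abcd2 (0.76) and Gpr26 (0.72), of Crym Inpp4b (0.75) and Nop2 (0.65), and of Slc17a6 Barx2 (0.65) and Glrx (0.61). The partners of Slc17a6 were the least alike, and its cortical values all lay between 11.44 and 12.05.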

How the data were processed

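Cortex and striatum of 24 mice were measured on 48 arrays. The authors deposited bead intensities on a linear scale, not normalized, with a detection p-value for each (per the file headers). Per the labels' protocols, labelling with biotin started from 100 ng of total RNA. A deposited table of the authors' log2 values equalled quantile-normalized log2 intensities that had no background correction (largest difference 4.99884e-09, median 7.94345 in each column). The tool behind it is not given in the sources used here.

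Intensities were background-corrected from the detection p-values and quantile-normalized over 48 arrays (the neqc method, offset 16, limma 3.58.1, R 4.3.3). Each of 16593 named genes was read by its probe with the highest mean; 1719 of 25697 probes had no symbol and 0 had several. Testing in a region required detection (p under 0.05) on at least 4 of its arrays, which left 11047 in cortex, 11225 in striatum and 11573 between regions. limma models held 6 group means and sex, with a variance trend, and p-values were adjusted by Benjamini-Hochberg over all features of a comparison. Regions were compared on within-mouse differences, paired by the mouse named in the labels.

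The members, gene lists and tests were chosen with earlier results of these data known. Named genes are the 9 members, the called genes of each list (at most the 3 largest each way) and the 2 most similar genes per member; further called genes of a list were named after its values were seen. There were 13 alternatives, with other normalizations, filters, probes, covariates and subsets by the labels' internal sample numbers, whose meaning is not stated, and each mouse was left out in turn. The models were tested on simulated data with known changes. The number of arrays limits the precision.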

Additional observations from a re-analysis of the deposited data

Results flagged for a closer look

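For Cux2 and Ccn2 the genotype difference in cortex was tested against itself at 2 ages, and it changed from 2 to 11 months by -0.64 (limma adjusted p = 0.0482) and 1.00 (0.0431). Both lay near the threshold: of 28 other settings, 20 took the call from Cux2 and 15 from Ccn2. For Cux2 and Crym the genotype difference differed between the regions at 11 months, striatum minus cortex, by 1.29 (limma adjusted p = 0.0057) and -1.20 (0.0235). Of 16 other settings, 1 took this call from Cux2 and 5 from Crym.

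Single mice stood apart from the other 3 of their group by Dixon's criterion in 9 of 108 groups of 4, where chance marks about 1 in 20. In striatum these were Slc17a6 in a wild-type mouse at 7 months (10.25, others 7.27 to 7.63) and in another at 11 months (11.37, others 6.96 to 7.67), and Slc17a7 in a BACHD-ΔN17 mouse at 7 months (8.68, others 6.68 to 6.91). Rorb (7.96, others 8.27 to 8.30) and Ccn2 (9.05, others 9.57 to 9.65) each stood apart in 1 wild-type striatum at 7 months. In cortex they were Crym in a BACHD-ΔN17 mouse at 11 months (9.55, others 10.23 to 10.32), Slc17a7 in a wild-type mouse at 11 months (13.48, others 13.72 to 13.75), and Slc17a6 in a wild-type mouse at 2 months (11.44, others 11.67 to 11.71) and a BACHD-ΔN17 mouse at 7 months (11.94, others 11.83 to 11.84).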

How the results depend on the processing

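Of 144 results on single genes, 23 were called, and 9 of these kept their call in every setting tried. Among these 9 were the regional differences in wild-type mice of Cux2, Rorb, Fezf2, Tbr1, Crym, Slc17a7 and Slc17a6. The rest were the genotype differences of Crym in striatum at 11 months and averaged over ages. No genotype call in cortex was among them. Crym in striatum at 11 months lay between -1.29 and -0.82. The cause of the changes below was not tested.

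Of the 9 genes, 4 were called in cortex at 11 months, but 2 within internal numbers 1 to 32 and 2 without numbers 1 to 8, where fewer mice remain. Averaged over ages in cortex 3 became 1 with scale normalization and 1 within numbers 1 to 32. For the cortical change from 2 to 11 months 2 became 1 without background correction, with the authors' values and with the second probe, and 0 with scale normalization, without a detection filter, without a variance trend, within numbers 1 to 32 and without numbers 1 to 8; leaving out mice gave 0 to 2. In striatum at 7 months 1 became 0 without a detection filter, without sex, without a variance trend and with groups of 8 arrays as a term, and 2 within numbers 1 to 32 and without numbers 1 to 8 (0 to 2 leaving out mice). At 11 months 1 became 2 with groups of 8 arrays or number sets as a term and within numbers 1 to 32 (1 to 2 leaving out mice). The striatal average went from 2 to 1 with the second probe. With scale normalization and without numbers 1 to 8, Fezf2 was called in that average and Cux2 was not. The striatal change went from 0 to 1 with scale normalization, number sets as a term and without numbers 1 to 8 (0 to 1 leaving out mice). The regional contrast of genotype differences at 11 months went from 2 to 1 with the second probe (1 to 2 leaving out mice). Cux2 averaged over ages in striatum turned from 0.42 to -0.12 with the second probe. Cortex and striatum are paired by mouse, and without the replicate block 8 of the 9 genes still differed between regions in wild-type mice.

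Scale normalization moved the split of calls over all features: the share higher was 43.2% and then 28.3% in cortex at 11 months, 46.3% and 14.1% in striatum at 11 months, and 42% and 31.5% in striatum at 7 months. The shares were 40.2% and 27.3% for the cortical average, 46.2% and 21.9% for the striatal average, 35.9% and 14.7% for the striatal change, and 49.9% and 28.8% between regions at 11 months. It shifted the median of all features by -0.19 in striatum at 11 months, -0.21 for the striatal change, -0.15 between regions at 11 months and -0.10 for the wild-type age difference in cortex. Over all features, scale normalization took the calls from 196 to 64 in cortex at 7 months, 1783 to 710 at 11 months, 1320 to 477 averaged and 440 to 119 for the change, from 1412 to 708 in striatum at 7 months, and from 177 to 106 and 585 to 330 between regions at 7 and 11 months. Without numbers 1 to 8, cortex at 11 months had 703 and the change 244. Numbers 1 to 32 alone gave 71 in cortex at 7 months, 537 averaged, 80 for the change, 916 in striatum at 7 months and 484 of 750 for its change. With groups of 8 arrays as a term there were 682 for the cortical change, 1388 of 2118 in striatum at 11 months and 395 for its change, and with number sets 307 in cortex at 7 months and 702 for its change. Between regions at 7 months no background correction gave 268. Leaving out 1 mouse gave as few as 859 in striatum at 7 months (transgenic mouse 4), 374 between regions at 11 months (wild-type mouse 1) and 80 at 7 months. For the wild-type age difference the 2 calls in cortex ranged from 0 to 20 and the 15 in striatum from 8 to 29. Fezf2 and Tbr1 in striatum lie near the detection floor, which limits what their values can show.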
